A study of Mus musculus with 8 samples.

Results

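Krüppel-like factors (Klf) are transcription factors that bind CACCC and GC-rich DNA through a block of zinc fingers near the C-terminus. In mouse embryonic stem cells (mESCs), cells derived from the inner cell mass of the blastocyst, Klf2, Klf4 and Klf5 act with partly redundant roles to maintain naive pluripotency, the state of the early epiblast. Many other members of the family are expressed in a wide range of tissues, where they act as activators or repressors.

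The data examined here cover 10 Klf genes, which were found by name in the deposited RNA-seq table of 19429 genes. They comprise the naive pluripotency factors Klf2, Klf4 and Klf5, the broadly expressed Klf3, Klf6, Klf9, Klf10, Klf13 and Klf16, and Klf17. The table holds 7 further Klf genes. The list of names was chosen by values of this same table that were already known, both the pooled means and the comparison of genotypes made from them, so the levels below are a description and no test accompanies them.

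RNA-seq was performed on LF2 mESCs grown with serum and leukemia inhibitory factor (LIF). Wild type cells (WT, lines 2 and 5) were compared with cells in which both copies of Tet1 carry the D2018A mutation (D2018A, lines 7 and 8), which weakens the interaction of the dioxygenase TET1 with the O-GlcNAc transferase OGT. In all of these lines both Tet1 copies also code for a C-terminal FLAG tag on TET1 and, behind a 2A peptide, for a separate fluorescent protein. Each line is a clone grown from a single cell. With 2 technical replicates of every line, there were 4 libraries per genotype but only 2 clones. The study also describes a deletion distal to the cut site that WT cells carry and D2018A cells lack.

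The measurement available for each gene is a single pooled mean, the authors' mean normalised signal over all libraries of their fit. It has no value per library, line or genotype, so no level in WT or D2018A, no standard deviation and no number of replicates can be given, and the question of whether a Klf gene differs between the genotypes was not analysed here. The smallest means fell on 12 values that are each shared by between 38 and 123 genes and correspond to 1 read in 1 library. The pooled mean therefore averages 12 libraries, 4 more than the 8 described, and the cells behind those 4 are not known from the sources used here. The size factors, which measure relative depth, ran from 0.726 to 1.47 over the 12 libraries.

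The labelled cell type was checked against marker genes. All 8 embryonic stem cell markers were abundant, with means between 977 for Zfp42 and 23079 for Esrrb. Of 8 feeder fibroblast markers, 5 had a row in the table, with a summed mean of 325 and with Thy1 (194) and the collagen gene Col1a1 (115) as its main contributors, while the collagen genes Col1a2 and Col3a1 stood at 0.689 and 0.093. Of the 8 trophectoderm markers, Cdx2 (1.49) and Elf5 (1.13) were near 0, while Tfap2c had a mean of 1694, and the summed mean of the list was 1991. The 8 primitive endoderm markers ranged from 5.16 for Foxa2 to 2526 for Lama1, with a sum of 3105. Of the 8 markers of two-cell-like cells 6 had a row, with a summed mean of 11.9. Some Klf genes are also used by these other cell types, and in bulk RNA fewer expressing cells and less RNA per cell cannot be told apart. The part of such cells in the levels below was not tested.

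The coding sequences of all 10 members hold the same DNA-binding module toward their 3′ end. In each coding sequence a search for the cysteine and histidine codons of the C2H2 zinc finger found 3 fingers, and the region from the first to the last of them measured 243 bases in every member. Between 3 and 9 bases lie between the fingers and the stop codon in Klf2, Klf3, Klf4, Klf5, Klf6 and Klf17, and 57 in Klf9, 87 in Klf10, 117 in Klf13 and 129 in Klf16. To show how closely the members resemble each other in a part of the DNA-binding fingers, the last 30 bases of the second finger, up to its final histidine codon, are given here from GENCODE transcripts on GRCm38, 5′ to 3′ on the coding strand. The stretch lies at chr14:99313207-99313236 on the plus strand for Klf5, at chr8:72320800-72320829 on the plus strand for Klf2 and at chr4:55528215-55528244 on the minus strand for Klf4. Klf9 is included for the run of bases it shares with Klf5, Klf10 as the most abundant broadly expressed member and Klf17 as the most different of the 10, and capitals mark bases that differ from Klf5.
Klf5: gatgagctgacccgccactacaggaagcac
Klf2: gaCgagctTacccgccactacCgAaagcac
Klf4: gatgaActgaccAgGcactacCgCaaAcac
Klf9: gatgagctgacccgccactacCggaCCcac
Klf10: gatgaActgTccAgAcacCGGCggaCAcac
Klf17: gatgagctTGGAcgAcacAaACggaTTcaT

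Relative to Klf5 this stretch differed at 4 bases in Klf2, 6 in Klf4, 3 in Klf9, 10 in Klf10 and 11 in Klf17. These counts are of bases and do not order the coded residues. Read as codons, the stretches of Klf2 and Klf4 code for the same residues as that of Klf5. In Klf9 a lysine codon of Klf5 (aag) is a threonine codon (acc). By bases over the whole 243-base finger region the order was different. Klf2 and Klf4 were the most alike of all 45 pairs of members, with 78.2% identical bases. Klf5 shared 70.4% with Klf2 and 68.3% with Klf4, and its closest match among the members was Klf3, a repressor that recruits the corepressor CtBP, with 73.7%. Klf13 and Klf16 (75.3%), Klf9 and Klf13 (72.8%) and Klf9 and Klf16 (71.2%) formed a second block of similar genes. Pairs outside this block were as alike, such as Klf3 and Klf6 (72.8%), so identity alone does not set it apart. Klf17 was the least like the others, and no pair that included it exceeded 62.1%. Among all pairs the identity ran from 53.1% for Klf10 and Klf17 to the 78.2% of Klf2 and Klf4, with a median of 62.6%.

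**Figure D1:**
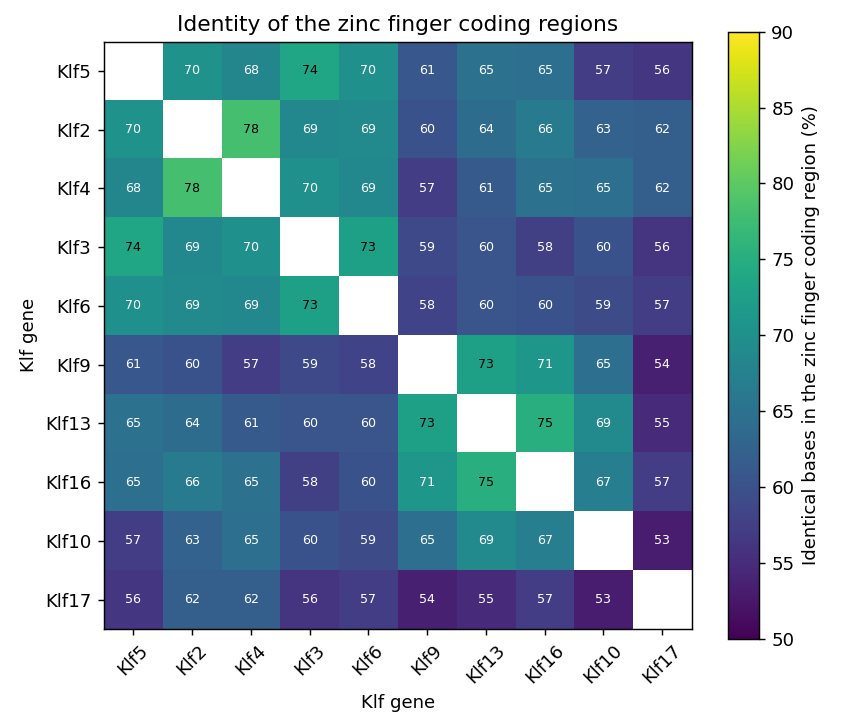
Percentage of identical bases between the zinc finger coding regions (243 bases each) of the 10 Klf genes, for each pair of genes on the x and y axes, from dark (50%) to light (90%). The Klf2 and Klf4 cell is the lightest (78.2%), Klf9, Klf13 and Klf16 form a block between 71.2% and 75.3%, and the Klf17 row is the darkest.

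This similarity matters for counting, because a read that fits 2 genes cannot be assigned to either. The reads were 50 bases long, and no stretch of 50 bases in the transcripts of any member occurred in another Klf gene. The longest identical run between coding sequences of 2 members had 24 bases, between Klf5 and Klf9, and it overlaps the stretch shown above.
Klf5 and Klf9: tcggatgagctgacccgccactac
The overlaps found were with genes outside the family. Among the members, the share of 50-base stretches also found in another gene was 9.32% for Klf17 and 3.48% for Klf3. Klf17 shared most with a processed pseudogene (Gm20690), and Klf3 overlaps Gm20033 on the opposite strand over 404 exonic bases. The share was 0.263% for Klf4, 0.147% for Klf13 and 0.0777% for Klf5. For Klf2, Klf6, Klf9, Klf10 and Klf16 it was 0%. Whether strand was used in counting is not given in the sources used here, so reads in the Klf3 overlap are uncertain.

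Klf5 (ENSMUSG00000005148, chromosome 14, 99298691 to 99313405) was the most abundant Klf gene. Its pooled mean was 18061 normalised counts over all libraries, with a 95% counting interval (exact Poisson) from 17985 to 18137. Such an interval covers counting error only, assumes that every library had the same level, and says nothing of the spread between lines or genotypes. Since a longer transcript yields more reads, levels of different genes are compared per kilobase (kb) of annotated exon. GENCODE ends Klf5 at 99315036, beyond the end given in the table, and its longer span was used for the length. If reads beyond the table's end were not counted, the level per kb of Klf5 is too low. Ratios to Klf5 of genes with identical spans are then too high. On that scale Klf5 had a mean of 3473 per kb and ranked 62 of 14873 protein-coding genes whose mean was 1 or more, at percentile 99.6, and the median of those genes was 36.4 per kb. The protein-coding genes next to it in level were Hdgf (3501) and Hist1h2ai (3475) above and Hist1h3e (3461) and Hist2h2bb (3431) below.

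Klf4 (ENSMUSG00000003032, chromosome 4, 55527143 to 55532466), the reprogramming factor that LIF induces through Stat3, came next. Its pooled mean was 6542, with a counting interval from 6496 to 6588. Per kb of exon it had a mean of 2146, which is 61.8% of Klf5, and stood at percentile 99.1. The genes beside it in level were Slc3a2 and Hist1h4f above and Hist1h2ah and Tcl1 below, between 2126 and 2168 per kb.

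Klf2 (ENSMUSG00000055148, chromosome 8, 72319033 to 72321656), which sustains naive pluripotency when MEK signalling is inhibited, was the lowest of the 3 naive factors. Its pooled mean was 2020, with a counting interval from 1995 to 2046, and per kb of exon its mean was 1094. That is 31.5% of Klf5, or 3.17-fold lower, at percentile 97.7. Klf2 is encoded by a short gene, with 1.85 kb of exon against 5.20 kb for Klf5, and without division by length its mean was 8.94-fold lower than that of Klf5. Cdc42 and Hnrnpl lay just above it and Mta1 and Samd4b just below, between 1092 and 1102 per kb.

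Of the broadly expressed members, Klf10 (chromosome 15, 38294413 to 38300707), an early gene of TGF-β signalling, stood apart. Its pooled mean of 5338 was the third highest among the members, and its 1277 per kb, 36.8% of Klf5, exceeded the 1094 of Klf2 with counting intervals that did not overlap (1267 to 1287 against 1080 to 1108). GENCODE starts Klf10 at 38291463, so its length has the same limit as that of Klf5. The other 5 broadly expressed members were lower per kb than each of the naive factors. Klf9 (chromosome 19, 23141226 to 23166911), which responds to glucocorticoid and thyroid hormones, had a pooled mean of 2246 and 466 per kb. GENCODE ends Klf9 at 23168134, so the same limit applies. Klf16 (chromosome 10, 80567124 to 80577321), whose finger region resembles those of Klf9 and Klf13, had a pooled mean of 1145 and 428 per kb.

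Klf3 (chromosome 5, 64803388 to 64832901) had a pooled mean of 3834, above that of Klf2, and 341 per kb, below it. Its exons add up to 11.2 kb over 9 annotated transcripts, whereas its longest transcript has 5221 bases. Its level per kb therefore depends on the length used more than that of the other members. Klf13 (chromosome 7, 63886351 to 63938915) had a pooled mean of 1725 and 229 per kb. Klf6 (chromosome 13, 5861482 to 5870394), a widely expressed early response gene, was the lowest broadly expressed member with a pooled mean of 339.5 and 77.3 per kb, at percentile 65.0. The median of the 6 broadly expressed members was 385 per kb, so Klf5 was 9.03-fold higher than their median and 1.23-fold higher than their sum of 2819 per kb. With the coding length Klf5 was 5.35-fold their median but 0.941-fold their sum, so the direction against the sum turned with that length.

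Klf17 (chromosome 4, 117757836 to 117765648), best known as a marker of human naive pluripotent cells, was close to absent. Its pooled mean was 1.24, with a counting interval from 0.687 to 2.05, which corresponds to about 14.7 reads over all 12 libraries. Per kb it had 0.515, at percentile 3.93 of the same protein-coding genes and at percentile 17.5 among all genes with no filter on low means. The genes next to it were Gm9936 and Myrip above and Dlx5 and Ahrr below, between 0.512 and 0.516 per kb. With so few reads the libraries that held them cannot be identified from the mean.

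**Figure D2:**
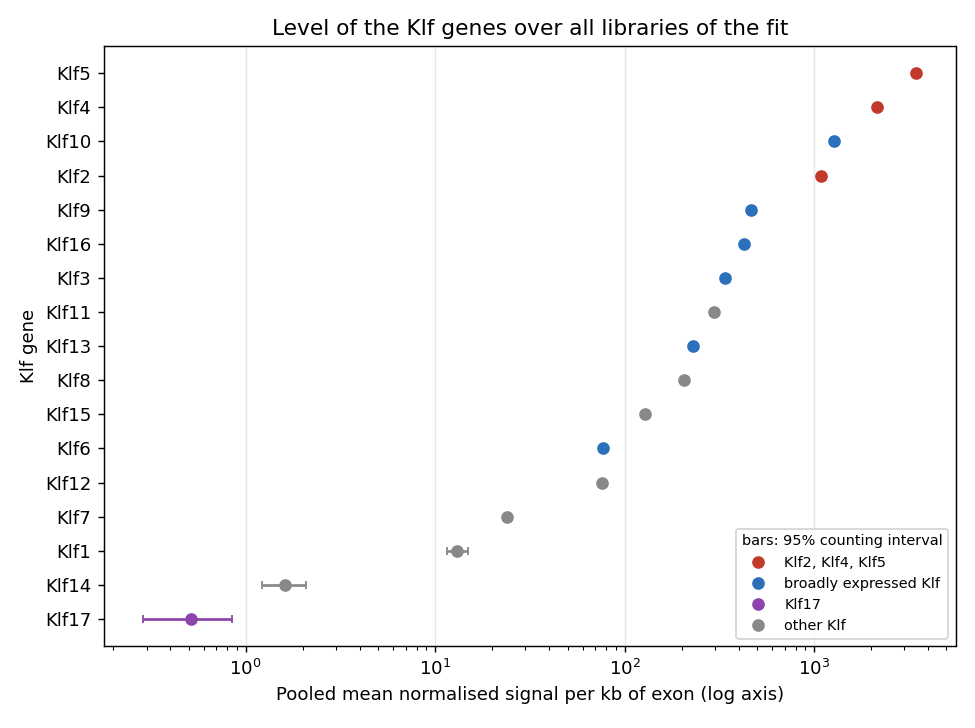
Pooled mean normalised signal per kb of exon (x axis, log scale) for the 17 Klf genes of the table (y axis), with 95% counting intervals as bars, narrower than the points for most genes. Red points are Klf2, Klf4 and Klf5, blue points the broadly expressed members, the purple point Klf17 and grey points the other Klf genes. Klf5 (3473) and Klf4 (2146) are the highest, Klf10 (1277) lies above Klf2 (1094), and Klf17 (0.515) is the lowest.

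In descending order per kb the members were Klf5, Klf4, Klf10, Klf2, Klf9, Klf16, Klf3, Klf13, Klf6 and Klf17. The counting intervals of neighbours in this order did not overlap, but without values per library it cannot be said which neighbours differ beyond the spread between lines. Of the 10 members, 9 lay above the median protein-coding gene, the exception being Klf17. The names were chosen with these levels known, so this count says nothing of the family at large. Summed per kb over the 17 Klf genes of the table, Klf5 made up 33.8% of the family's level, Klf4 20.9% and Klf2 10.6%, together 65.3%. The 6 broadly expressed members made up 27.4%, and the 7 Klf genes outside the list 7.23%.

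**Figure D3:**
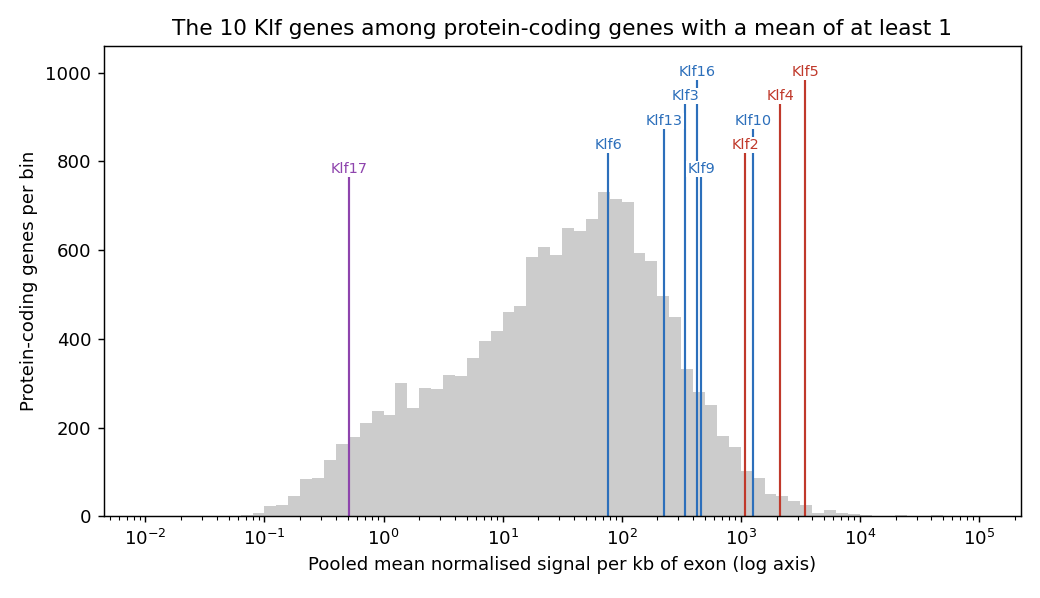
Number of protein-coding genes (y axis) per bin of pooled mean normalised signal per kb of exon (x axis, log scale), for the 14873 genes whose mean was 1 or more, with the 10 Klf genes as vertical lines coloured as in the plot of levels. The 3 naive factors and Klf10 lie in the upper tail between 1094 and 3473, Klf6 (77.3) lies near the centre, and Klf17 (0.515) in the lower tail.

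The length chosen for a gene changed how far apart the members lay, but not which stood at the top and bottom. Klf5, Klf4 and Klf10 kept the first 3 places, and Klf6 and Klf17 the last 2, with all annotated exons, with the longest transcript, with the coding length and with no length. Klf2 did not keep its place. It followed Klf10 directly per kb of exon and with the longest transcript, but fell behind Klf3, Klf9 and Klf13 with the coding length and behind Klf3 and Klf9 with no length, so its position relative to Klf3, Klf9 and Klf13 depends on that choice. For Klf5 the exons of its 2 annotated transcripts add up to 5201 bases while the longer transcript has 3352 bases, and with the latter the level of Klf4 relative to Klf5 moved from -0.69 to -1.32 on the log2 scale.

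**Figure D4:**
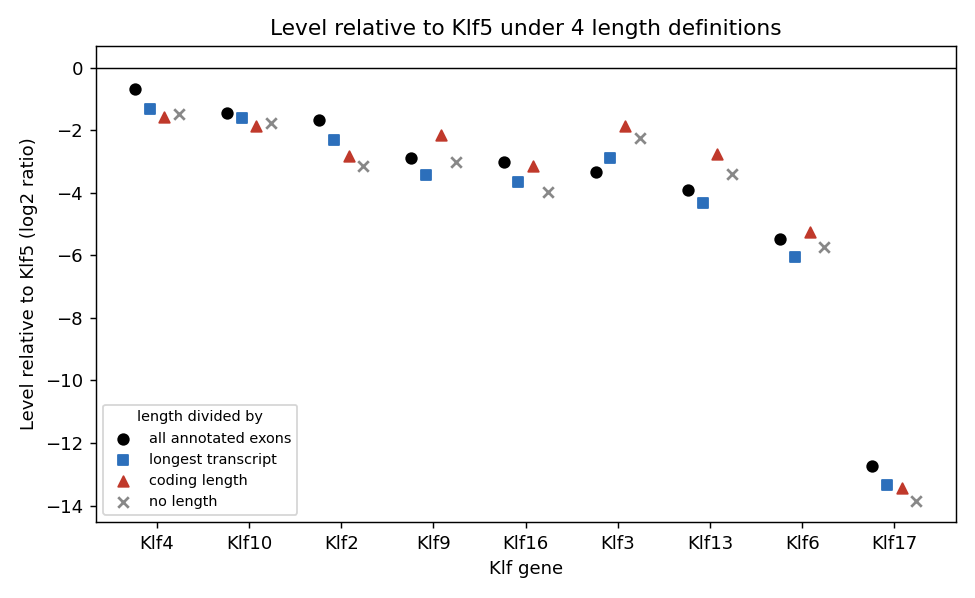
Level of 9 Klf genes relative to Klf5 as a log2 ratio (y axis; 0 is the level of Klf5), with the pooled mean divided by all annotated exons (black circles), by the longest transcript (blue squares), by the coding length (red triangles) or by no length (grey crosses). All points lie below 0, Klf4 is the nearest to it between -0.69 and -1.58, and Klf2 ranges from -1.67 to -3.16.

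To place the naive Klf genes among the factors they work with, 14 naive pluripotency regulators were compared on the same scale. Esrrb, an orphan nuclear receptor, was the only one above Klf5, with 3817 per kb. Nanog (2572) lay between Klf5 and Klf4, and Sall4 (1954), Sox2 (1527) and Tfcp2l1 (1215) between Klf4 and Klf2. The remaining 9 were below Klf2, among them Pou5f1 (894), Stat3 (170.0) and Dppa3 (8.16). This order depends on the length used. With the longest transcript Esrrb (mean 23079, 4300 bases) fell just below Klf5 (18061, 3352 bases). Pou5f1 (2011, 1362 bases) then lay above Klf2 (2020, 1847 bases). With no length Tfcp2l1 (mean 11467) and Sall4 (10816) exceeded Klf4 (6542). Of the 50-base stretches of Gbx2, 42.2% also occur in another gene, and the share was 16.5% for Dppa3, 10.1% for Pou5f1, 8.52% for Zfp42, 7.64% for Sall4 and 4.61% for Nanog. The search covered both strands, and the gene sharing most with Pou5f1 is an antisense gene. Reads in stretches on opposite strands can be assigned only if strand was used in counting, which is not known. Other shared reads cannot be assigned to either gene. All of these genes enter the order and the median of the list. The median of the list was 623 per kb, and each of the 3 naive Klf genes lay above it.

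The members are spread over 9 chromosomes, with Klf4 and Klf17 both on chromosome 4. Klf5 lies on chromosome 14 beside Klf12, which codes for a repressor, with 561081 bases between them by the table's coordinates and no gene of the table in that interval. In the finger region Klf12 was also the Klf gene most like Klf5, with 74.5% identical bases. Its pooled mean was 530, or 75.8 per kb, against 3473 per kb for Klf5.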

How the data were processed

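RNA was extracted from WT (lines 2 and 5) and D2018A (lines 7 and 8) mESCs with 2 technical replicates per line. Per the labels and the study's methods, rRNA-depleted libraries were read as single ends of 50 bases, aligned to GRCm38.p6 and counted per gene with STAR 2.5.3a, and normalised by the authors with DESeq2 1.20.0. The deposited mean signal of each gene is its counts divided by a size factor per library and averaged over the libraries of that fit, 12 by its smallest values. The table's remaining numeric columns hold the authors' comparison of D2018A with WT (fold change, standard error, statistic, p-value and adjusted p-value) and were not used. The planned count test between genotypes needs counts per library and was not run. The summed mean was 10937569, of which 0.0191% fell in 39 rows without a gene name. The members and lists were chosen with earlier results of these data known, and named genes are the members and genes of lists written beforehand, with the 2 nearest protein-coding genes above and below Klf5, Klf2, Klf4 and Klf17 in level.

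Means were divided by the length of all exons of GENCODE M21, which matched 19351 identifiers; gene spans of 7 members were identical in both and of 3 (Klf5, Klf9 and Klf10) differed. The number of libraries was counted from values shared by at least 30 genes that are not sums of lower ones. The search was also run on simulated data, where it found every simulated library. Those data were not shown to hold as few genes per shared value as the deposited table. The simulated outcome therefore cannot decide whether the number of libraries found in the deposited table is right. Reads behind a mean were taken as the mean times the number of libraries, divided by the mean inverse size factor. Zinc fingers, shared stretches and identities were computed from GENCODE transcripts with Python 3.11.15, Biopython 1.88, pandas 2.3.3 and scipy 1.17.1. Identity over the equally long finger regions needed no gaps. Alternatives were other lengths, other sets of genes for the percentiles, pseudocounts, step sizes and alignments.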

Additional observations from a re-analysis of the deposited data

How the results depend on the processing

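All 45 recomputed log2 levels relative to Klf5, under other lengths and pseudocounts, stayed below 0, and 19 of them moved by less than the counting error. Nearly all of these 19 used a pseudocount, which hardly changes levels this high. With other lengths every level moved by more, except that of Klf17 with the longest transcript and with the coding length. With the longest transcript the level relative to Klf5 was -2.30 for Klf2, -1.32 for Klf4 and -1.62 for Klf10, against -1.67, -0.69 and -1.44 per kb of all exons. With the coding length it was -2.83, -1.58 and -1.86, and with no length -3.16, -1.47 and -1.76. The share of Klf2, Klf4 and Klf5 in the summed Klf level, 65.3%, was 53.7% with the coding length and 59.5% with no length. Klf5 was 9.03-fold the median and 1.23-fold the sum of the 6 broadly expressed members, against 11.6-fold and 1.43-fold with the longest transcript and 5.35-fold and 0.941-fold with the coding length, the latter reversing the direction against the sum. These moves follow from the lengths themselves. Of 40 percentiles recomputed with other sets of genes or lengths, 24 moved, that of Klf17 from 3.93 to 17.5 with all genes and to 0 with genes whose mean was at least 10. The number of libraries was 12, again 12 with at least 20 genes per step, and 5 with at least 50, since fewer values are then shared by enough genes. Identity of the finger regions was 70.4% for Klf2 and Klf5, 68.3% for Klf4 and Klf5 and 78.2% for Klf2 and Klf4. Over the aligned whole coding sequences it was 63.6%, 63.2% and 71.1%, per length of the shorter sequence 60.9%, 58.3% and 69.0%, and outside the fingers 61.0%, 61.6% and 69.0%. Protein sequences were not used here, so the identities are of coding bases, and a base difference need not change a residue. No paired analysis was possible because the deposited table has no column per library, and for the same reason no replicate could be left out. Among the 10 members depth limits Klf17 most, whose mean rests on about 14.7 reads, and of the other genes given, Klf14 (58.8 reads), Sp9 (23.0), Dppa3 (86.9), Cdx2 (17.8), Elf5 (13.5), Col1a2 (8.22) and Col3a1 (1.11) also rest on few.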

Other observations

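The 7 Klf genes outside the list were lower per kb of exon than Klf5, with a median of 75.8. The highest was Klf11, the closest relative of Klf10, with 295 per kb and a pooled mean of 1280, followed by Klf8 (205) and Klf15 (128). Klf1, the erythroid factor, had 13.1 per kb and Klf14 had 1.61. Klf7 had 24.0 per kb, but 38.2% of its 50-base stretches also occur in Gm26649, a long noncoding RNA gene. The strand of these matches was not examined, so whether such reads can be assigned is not known. The related Sp genes, whose zinc fingers bind GC boxes, ran from 0.382 per kb for Sp9 to 668 for Sp1 with a median of 23.6. That median is the value of Sp6, of whose 50-base stretches 86.6% also occur in Gm11532, so it is uncertain. Sp1 and Sp2 (616) lay above Klf9, Klf16, Klf3, Klf13 and Klf6 and below Klf2. This order also depends on the length used. With no length Sp1 (mean 5517) and Sp2 (2104) exceeded Klf2 (2020), while Klf3 (3834) and Klf9 (2246) exceeded Sp2. With the longest transcript Klf3 (3834, 5221 bases) lay above Sp1 (5517, 7754 bases) and Sp2 (2104, 3055 bases).

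RefSeq promoters (GRCm38.p6, 250 bases before and 50 after the start) were held for 7 of the 10 members and not for Klf5, Klf10 and Klf16. Each was described by its CpG count in 300 bases. It was 40 in Klf4, 32 in Klf2 and in Klf13, 29 in Klf3, 28 in Klf9 and 23 in Klf6, against 6 in Klf17 and a median of 7 over all 32851 promoters. CACCC, searched on both strands, was present in 5 of the 7, against 57.5% of all promoters. GGGCGG, also searched on both strands and free to overlap CACCC, was present in 6 of the 7, against 35.7% of all. These matches describe letters in a window and not binding.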
